A study of Mus musculus with 16 samples.

Results

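The genes described here are 51 genes of the cell division cycle: 8 that act in G1 (the D and E cyclins and E2F factors), 13 that act in S phase (replication licensing, the replication clamp and nucleotide supply) and 30 that act in G2 and mitosis. They were chosen by name, as the genes whose probes carry an accession of a listed symbol, and not by any measured value. The choice was made with earlier results of these data known. These genes are 51 of 20145 named genes on the array. All had a probe, and 42 were measured well enough to be tested, among 14614 genes tested: 6 in G1, 12 in S phase and 24 in mitosis. The other 9 (Ccne2, E2f8, Cdc6, Top2a, Aurkb, Bub1, Cenpf, Kif11 and Kif2c) were not above background on all 4 arrays of any group.

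Messenger RNA on ribosomes of mouse kidney glomeruli was measured on 16 one-colour Agilent arrays, 4 in each of 4 groups, all on the C57BL/6N background. RiboTag mice carry a ribosomal protein that gains an HA tag in cells with Cre recombinase, and here Cre was driven by Nphs1, a gene of podocytes, the epithelial cells that wrap the glomerular capillaries. Podocyte RNA came from polysomes pulled down with antibody to HA, and glomerular RNA from polysomes without that step. The 2 uninjured groups, podocyte and glomerular, came from Nphs1-RiboTag mice. The 2 injured groups hold podocyte RNA of Nphs1-RiboTag-NEP25 mice 4 and 7 days after 1 tail vein injection of LMB2 at 0.625 ng per g of body weight. In NEP25 mice the podocytes display human CD25, which the immunotoxin LMB2 is directed at. Every mouse thus carried the tag and the Cre. No group holds NEP25 mice without LMB2, so the NEP25 allele and the toxin cannot be told apart. The tag marks whichever cells the Nphs1 promoter had driven Cre in. Ages were not given. Since no label ties an array to an animal of its own, p-values measure only the spread between samples, which may be technical.

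The cell cycle is driven by cyclins and the kinases they bind. D and E cyclins release E2F factors from the retinoblastoma protein in G1, E2F factors switch on the replication genes of S phase, and a later set of genes, read mostly in G2 and mitosis, condenses, aligns and separates the chromosomes. Many genes of that later set are controlled through a cell cycle homology region (CHR) and nearby CCAAT boxes in their promoters, where the DREAM and MuvB complexes and NF-Y bind. Podocytes are known as cells that have left the cycle and seldom divide in the adult kidney.

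Promoters of mitotic genes that rose after LMB2 are shown because they carry, or lack, the motifs that many mitotic genes share. The windows are RefSeq's for mouse build GRCm38.p6 and begin 250 bases before the annotated start of transcription. Printed are the 250 bases upstream for the 5 members with the largest rises at day 4 among those with a window at hand, 5′ to 3′ on the gene's strand. Capitals mark a CCAAT box (CCAAT or its reverse ATTGG), a CHR (TTTGAA, its reverse TTCAAA, or TTTAAA) or an E2F site (TTTCCCGC, TTTGGCGC or TTTCGCGC, either strand). The regions are chr11:117848987-117849236 (plus strand) for Birc5, chr9:70421555-70421804 (minus strand) for Ccnb2, chr2:119618048-119618297 (plus strand) for Nusap1, chr7:122159185-122159434 (plus strand) for Plk1 and chr2:164769679-164769928 (plus strand) for Ube2c.
Birc5: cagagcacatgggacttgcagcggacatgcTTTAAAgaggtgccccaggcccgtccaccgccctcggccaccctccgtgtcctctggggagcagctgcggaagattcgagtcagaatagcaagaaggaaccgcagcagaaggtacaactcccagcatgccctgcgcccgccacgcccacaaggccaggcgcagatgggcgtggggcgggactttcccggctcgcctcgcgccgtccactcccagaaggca
Ccnb2: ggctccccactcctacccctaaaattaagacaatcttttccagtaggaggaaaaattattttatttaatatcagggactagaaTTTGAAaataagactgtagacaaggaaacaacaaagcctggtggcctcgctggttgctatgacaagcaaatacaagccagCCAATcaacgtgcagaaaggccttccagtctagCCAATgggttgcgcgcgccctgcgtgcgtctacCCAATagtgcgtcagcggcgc
Nusap1: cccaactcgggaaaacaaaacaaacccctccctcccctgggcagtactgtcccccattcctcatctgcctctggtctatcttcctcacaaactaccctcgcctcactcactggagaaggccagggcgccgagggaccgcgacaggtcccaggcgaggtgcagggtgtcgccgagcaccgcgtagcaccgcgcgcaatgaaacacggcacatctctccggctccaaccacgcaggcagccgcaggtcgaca
Plk1: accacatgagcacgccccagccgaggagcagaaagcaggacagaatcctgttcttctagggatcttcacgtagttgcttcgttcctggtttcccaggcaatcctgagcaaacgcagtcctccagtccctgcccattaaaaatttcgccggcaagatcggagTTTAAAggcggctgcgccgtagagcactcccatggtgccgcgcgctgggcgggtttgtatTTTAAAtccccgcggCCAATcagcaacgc
Ube2c: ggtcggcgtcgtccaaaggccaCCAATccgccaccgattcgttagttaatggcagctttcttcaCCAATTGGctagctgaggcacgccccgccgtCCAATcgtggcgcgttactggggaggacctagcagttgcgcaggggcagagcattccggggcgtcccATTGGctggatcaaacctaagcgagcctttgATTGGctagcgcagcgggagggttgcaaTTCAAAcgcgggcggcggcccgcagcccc
Ccnb2 held 3 CCAAT boxes and 1 CHR in this stretch, Plk1 held 1 CCAAT box and 2 CHR matches, and Ube2c held 6 CCAAT letters, 2 of them overlapping as CCAATTGG, and 1 CHR. Birc5 held 1 CHR and Nusap1 none of the letters, which says only that they are not in this window.

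Windows of 300 bases (250 before the start and 50 after) were at hand for 42 of the 51 genes and for 27025 genes in all. A CHR was found in 22 of 26 mitotic members (84.6%), in 4 of 11 S phase members (36.4%), in 2 of 5 G1 members (40.0%) and in 30.6% of all genes. A CCAAT box was found in 20 of 26 mitotic members (76.9%) against 41.1% of all genes, and the pair together in 73.1% against 13.4%. The E2F letters had the opposite distribution, with 6 of 11 S phase members (54.5%), 1 of 26 mitotic members (3.85%) and 2.12% of all genes. Among mitotic members the CHR share was much alike for those that rose at both days after LMB2 (8 of 9) and for the other mitotic members (14 of 17). Those others include Top2a, Bub1, Cenpf, Kif11 and Kif2c, whose change after LMB2 was not tested. These are counts of letters and not of bound sites, and no test was made.

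**Figure D1:**
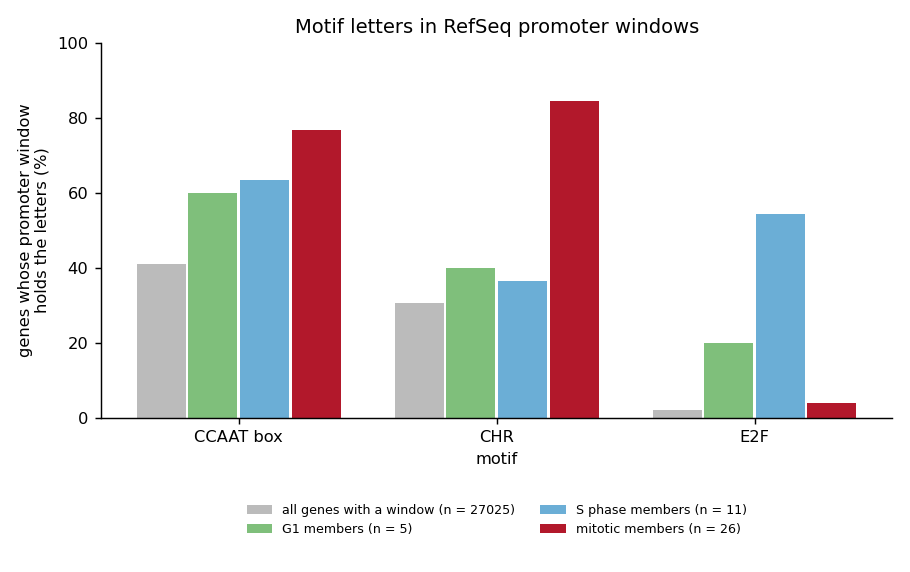
Share of genes (y axis, percent) whose 300-base RefSeq promoter window holds the letters of a CCAAT box, a CHR or an E2F site (x axis), for all genes with a window, G1, S phase and mitotic members. The CHR bar is highest for mitotic members (84.6%), and the E2F bar is highest for S phase members (54.5%).

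Values are log2 of the processed intensity minus the 75th percentile of the array, so 0 is the level of that percentile. A difference is between the means of 2 groups of 4 arrays, with the standard error from limma after the ± sign, and a gene was called when its Benjamini-Hochberg adjusted p over all 14614 genes was under 0.05. The share of spots well above background ran from 49.3% to 57.5% over the arrays. All 10 podocyte markers were higher in podocyte than in glomerular RNA (median difference 2.31), and all 12 endothelial and all 10 mesangial and smooth muscle markers were lower (medians -4.06 and -3.06). All of those markers of other cells were still above background on every array of precipitated RNA. Both uninjured groups lay on 1 slide and both injured groups on the other, each read in a scan of its own, so for each day against normal the slide and the injury cannot be told apart, while podocyte against glomerular RNA and day 7 against day 4 each lie within 1 slide. In RNA of many cells, fewer cells of a type and less RNA per cell cannot be told apart.

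Uninjured podocytes held less of some mitotic and nucleotide supply transcripts than whole glomeruli, Ccna2, Ccnb2, Tk1 and Rrm2 among them, and more of others, among them E2f1, Pcna and Mcm4. Of the 42 members tested 21 were lower and 9 higher in podocyte RNA, beside 27.5% and 51.6% of all genes tested, so that 30 of 42 members and 79.1% of all genes were called. The median difference of the members was -0.43 against 0.38 for all genes. The 4 podocyte and 4 glomerular arrays did not overlap for 24 members, beside 73.1% of all genes. Lower were 12 of 24 mitotic, 7 of 12 S phase and 2 of 6 G1 members, and higher were 3, 4 and 2, the last being E2f1 and E2f7, whose probes disagreed. When each array was set to the median of all its probes, a level near background, the median of all genes moved to 0.70 and the split became 16 lower and 12 higher. The members' median relative to that of all genes was -0.81, and it was -0.59 with quantile normalization and -0.50 with normexp background correction.

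Cyclins A2 and B2, thymidine kinase and Rrm2 had the lowest podocyte values relative to glomeruli. Ccna2, cyclin A2 of S phase and G2, stood at -1.30, -1.03, -1.78 and -2.55 on the 4 glomerular arrays and at -5.49, -4.58, -5.36 and -6.39 on the podocyte arrays. The groups did not overlap, and the difference was -3.79 ± 0.38, adjusted p = 4.1e-07 (1 of 4 podocyte arrays above background). Tk1, thymidine kinase, stood at -1.17, -0.98, -1.53 and -1.21 in glomerular RNA and -5.22, -4.21, -5.46 and -4.49 in podocyte RNA, a difference of -3.62 ± 0.33, adjusted p = 1.9e-07. Rrm2, the regulated subunit of ribonucleotide reductase, stood at 0.61, 0.15, -0.30 and -0.46 against -3.42, -3.56, -3.50 and -3.97 (-3.61 ± 0.39, adjusted p = 1.0e-06). For these genes every glomerular array lay above every podocyte array. Mki67, the Ki-67 protein of dividing cells, stood at -0.27, 0.20, -0.51 and -1.03 against -4.03, -3.21, -3.63 and -4.40 (-3.41 ± 0.49, adjusted p = 1.6e-05). Cdk1, the kinase of mitotic entry, was by its kept probe above background on all 4 glomerular arrays (-2.63, -2.74, -3.61 and -4.00) and on none of the podocyte arrays. On that probe it was at least 3.11-fold lower in podocytes (adjusted p = 7.7e-05). That bound sets the glomerular mean against the faintest signal called above background on the podocyte arrays. The gene's other probes, which did not pass the filter, went the other way (1.32 and 0.44). The first of them was above background on 2 podocyte arrays and 1 glomerular array, and the second on none of either group.

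Among other mitotic genes, Ccnb2 was lower by a difference of -3.62 ± 0.39, Cenpa, the histone H3 variant of centromeres, by -3.17 ± 0.31, Ube2c, an enzyme of the anaphase-promoting complex, by -3.15 ± 0.35 and Birc5, survivin, by -2.74 ± 0.34. Ccnb1, Prc1, Plk1, Nusap1 and Cdc20 were also lower, with differences from -2.55 to -0.62, the last of these lost without any 1 of 3 arrays. Of the G1 members, Ccnd1 and Ccnd2 were lower (-3.23 ± 0.22 and -3.34 ± 0.17) and Ccnd3 was not called (-0.01 ± 0.07, adjusted p = 0.9), and it was called lower after quantile normalization (-0.32, adjusted p = 0.0016) and higher after setting the median of all probes (0.31, adjusted p = 0.039).

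Podocytes held more of E2f1, the activating E2F factor, at 4.65, 4.29, 4.90 and 4.74 against 1.69, 1.61, 2.28 and 1.75 in glomerular RNA. The groups were far apart, and the difference was 2.81 ± 0.22, adjusted p = 3.8e-08, the largest of the members' differences in that direction. Higher too were Mad2l1, a spindle checkpoint protein (1.32 ± 0.14), Plk4 of centriole duplication (1.04 ± 0.15) and Ect2, an exchange factor of cytokinesis (0.99 ± 0.15). In S phase, Pcna, the replication clamp (0.78 ± 0.10), Mcm4 (0.76 ± 0.13), Mcm5 (0.52 ± 0.16) and Gmnn, geminin, the inhibitor of licensing (0.76 ± 0.16), were higher. Mcm3, another subunit of the same replicative helicase, was lower (-1.39 ± 0.21), as were Mcm2, Mcm7, Cdt1 and Tyms (from -0.50 to -0.37). The call was lost without any 1 of 8 arrays for Mcm7 and 10 for Tyms, and without 1 array each for Mcm2 and Cdt1. The 2 probes of E2f7 disagreed: the brighter one was higher in podocytes (0.48) and the other lower (-4.31), so no direction is given for that gene.

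The replicate numbers paired the samples of this comparison, and a fit of these 2 groups alone with the number as a block changed 5 calls. Without the block, the 2 groups alone lost the call of Mcm7 (adjusted p = 0.065) and kept the other 29. Aurka became higher (0.62, adjusted p = 0.0025), as did Pttg1 (0.25, adjusted p = 0.019). Hmmr became lower (-0.61, adjusted p = 0.0009), as did Cdca8 (-0.28, adjusted p = 0.011), and Tyms was lost (adjusted p = 0.063). The 2 kept probes of Pttg1 had opposite signs (0.25 and -0.41), as had those of Cdca8 (-0.28 and 0.01). The calls of Pttg1 and Cdca8 thus hold for 1 probe each. The mitotic genes also shared an order within the uninjured groups. Replicate 2 was the highest of the 4 arrays for 19 of 24 mitotic members in podocyte RNA and for 20 of 24 in glomerular RNA, against 22.5% and 19.9% of all genes, and replicate 4 was the lowest for 14 and 20, against 32.2% and 31.8%. These orders were not tested.

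A set of mitotic transcripts was higher in injured than in normal podocyte polysomes by day 4. Of the 11 mitotic members that rose at both days, 5 rose further between them (1 with the replicate number as a block) and Birc5 came down (not called with the block), while Ki-67, Tk1 and cyclin D1 rose at day 7 and also exceeded their day 4 levels there. At day 4, 13 of 42 members rose and 6 fell, beside 12.3% and 19.9% of all genes tested (32.2% called in all). The members' median was -0.07, close to the -0.12 of all genes. Most of the rises were of mitotic genes: 11 of 24 mitotic members rose and 2 fell, 2 of 12 S phase members rose and 2 fell, and no G1 member rose while 2 of 6 fell. At day 7, 19 members rose and 7 fell, beside 21.6% and 36.7% of all genes (58.3% in all), with a median of 0.37 against -0.14. There 12 of 24 mitotic members rose and 2 fell, 5 of 12 S phase members rose and 3 fell, and 2 of 6 G1 members rose and 2 fell. With each array set to the median of all probes, the medians of all genes were -0.39 and -0.47, and 11 members rose and 11 fell at day 4, and 18 rose and 12 fell at day 7. Relative to all genes the members' medians were 0.06 and 0.52, with 0.0099 and 0.51 after quantile normalization and 0.052 and 0.35 after normexp correction. The injured and normal arrays did not overlap for 15 members at day 4 and 22 at day 7, beside 33.1% and 50.6% of all genes. Both days were compared with the same normal arrays.

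**Figure D2:**
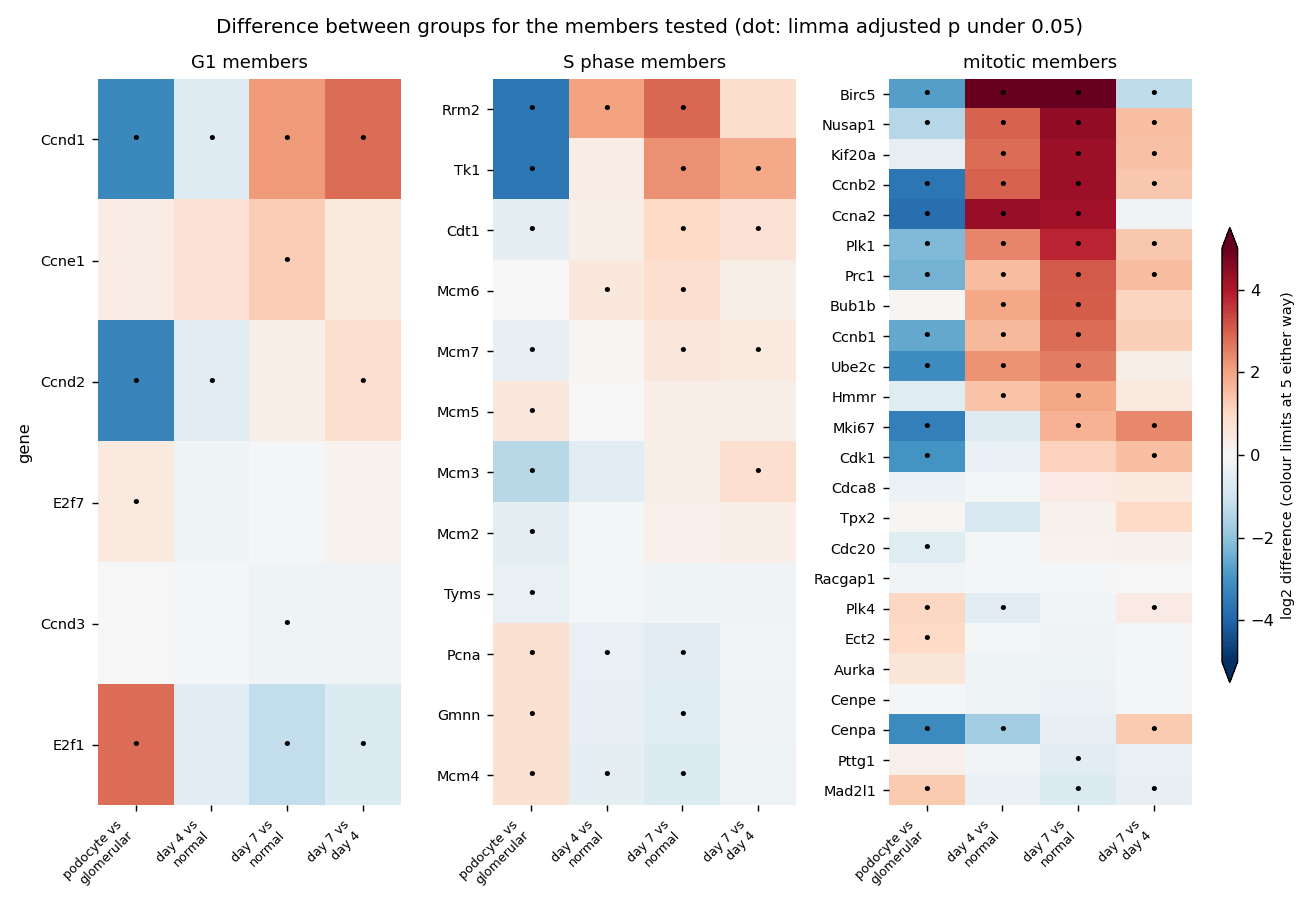
Log2 difference (colour, red higher and blue lower) for each tested member (rows) in each of 4 comparisons (columns), with panels for G1, S phase and mitotic members sorted by the day 7 difference. Differences known only as bounds (Cdk1 and Cenpa) are coloured as measured. A dot marks a call by limma, and the upper 12 rows of the mitotic panel are the 12 members called higher at day 7, of which Mki67 alone was not called higher at day 4.

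Of the 13 members that rose at day 4, all 13 were also called higher at day 7. Mcm4 and Pcna fell at both days. Ccne1, Cdt1, Mcm7, Mki67 and Tk1 were called higher at day 7 and not called at day 4, Ccnd1 fell at day 4 and rose at day 7, and Ccnd2, Cenpa and Plk4 fell at day 4 and were not called at day 7. Ccnd3, E2f1, Gmnn, Mad2l1 and Pttg1 were called lower at day 7 and not at day 4. The remaining 13 tested members were called at neither day.

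Of the G1 genes, Ccnd1, cyclin D1, which links growth signals to the cycle, had the widest swing. It stood at 1.80, 3.00, 2.48 and 2.39 on the normal podocyte arrays, 2.23, 1.38, 1.75 and 1.65 at day 4 and 4.43, 4.63, 4.52 and 4.61 at day 7. The day 7 arrays were tightly grouped above all others, while day 4 overlapped normal. The day 4 fall was small (-0.66 ± 0.22, adjusted p = 0.029) and lost its call under several other settings, with quantile normalization (-0.57, adjusted p = 0.065) and without 1 array, among them normal replicate 2 (-0.47, adjusted p = 0.090). The day 7 rise was 2.13 ± 0.22, adjusted p = 1.5e-06, a 4.38-fold increase, and day 7 exceeded day 4 by 2.79 ± 0.22, adjusted p = 7.0e-07. Glomerular RNA stood higher still, at 5.77, 5.85, 5.51 and 5.46.

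Ccne1, cyclin E1, the partner of Cdk2 at entry to S phase, stood at -2.44, -0.30, -1.37 and -0.96 in normal podocytes, -0.87, -0.45, -0.20 and -0.62 at day 4 and -0.25, -0.01, -0.35 and 0.40 at day 7. The normal arrays were widely spread and the highest of them, replicate 2, overlapped both later groups. The day 7 rise was 1.21 ± 0.38, adjusted p = 0.013, and day 4 was not called (0.73 ± 0.38, adjusted p = 0.16), except without normal replicate 2 (1.05, adjusted p = 0.039). E2f1 went down, from 4.65, 4.29, 4.90 and 4.74 in normal podocytes through 4.06, 4.46, 4.22 and 3.60 at day 4 to 3.00, 3.89, 3.44 and 3.26 at day 7. The day 7 arrays lay below every normal array, and the fall was -1.25 ± 0.22, adjusted p = 0.00023, with -0.69 ± 0.22, adjusted p = 0.027 between the days. That last call was lost without any 1 of 4 arrays, for instance day 7 replicate 1 (-0.55, adjusted p = 0.083).

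Ccnd2 was slightly lower at day 4 (-0.55 ± 0.17, adjusted p = 0.027), a call lost without normal replicate 3 (-0.43, adjusted p = 0.083), without any 1 of 3 other arrays and in 3 other settings. Ccnd3 was slightly lower at day 7 (-0.21 ± 0.07, adjusted p = 0.017), lost after quantile normalization (-0.16, adjusted p = 0.090). Between the days Ccnd2 rose by 0.84 ± 0.17, adjusted p = 0.0023. E2f7 was not called on its brighter probe (-0.05 at day 7), and its other probe was at 2.30 there. E2f8, untested, was above background on 3 of 4 arrays at day 7, on 2 of 4 glomerular arrays and on no array of normal or day 4 podocytes.

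Among S phase genes, Rrm2 was the one large rise at day 4. It stood at -3.42, -3.56, -3.50 and -3.97 in normal podocytes, -2.46, -1.81, -0.98 and -1.17 at day 4 and -0.52, -0.01, -1.95 and -0.48 at day 7. Every injured array lay above every normal array. The rise was 2.01 ± 0.39, adjusted p = 0.0015 (4.03-fold) at day 4 and 2.87 ± 0.39, adjusted p = 2.4e-05 (7.32-fold) at day 7. Replicate 3 was the lowest day 7 array, and without it the difference between the days, 0.86 ± 0.39, adjusted p = 0.11, became 1.26 (adjusted p = 0.011). Tk1 stood at -5.22, -4.21, -5.46 and -4.49 in normal podocytes, -4.56, -4.70, -3.90 and -4.66 at day 4 and -2.71, -1.75, -3.41 and -2.30 at day 7. Day 4 replicates 1, 2 and 4 lay among the normal arrays and replicate 3 above them (0.39 ± 0.33, adjusted p = 0.41, 1 of 4 above background at day 4 and 2 of 4 in normal podocytes), and all 4 day 7 arrays lay above both groups (2.30 ± 0.33, adjusted p = 4.2e-05, and 1.91 ± 0.33, adjusted p = 0.00073 between the days).

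Cdt1, which loads the replicative helicase on DNA, stood at -0.82, -0.11, -0.54 and -0.89 in normal podocytes, -0.48, -0.19, -0.19 and -0.35 at day 4 and 0.66, 0.50, 0.12 and 0.42 at day 7. It rose at day 7 (1.01 ± 0.17, adjusted p = 0.00016) and between the days (0.72 ± 0.17, adjusted p = 0.0053), with day 7 above all other podocyte arrays. Its inhibitor Gmnn was lower at day 7 (-0.61 ± 0.16, adjusted p = 0.0042).

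The 6 subunits of the replicative helicase, Mcm2 to Mcm7, did not move together. Mcm6 rose at both days (0.54 ± 0.14 and 0.82 ± 0.14), although the day 4 call was lost with each array set to the median of all probes (0.28, adjusted p = 0.14). Mcm7 rose at day 7 (0.58 ± 0.18, adjusted p = 0.013) and by 0.50 ± 0.18, adjusted p = 0.045 between the days, a call lost without any 1 of 9 arrays. Mcm4 fell at both days (-0.46 ± 0.13 and -0.73 ± 0.13), the first call being lost after quantile normalization (-0.35, adjusted p = 0.056). Mcm3 rose between the days (0.84 ± 0.21, adjusted p = 0.0082) without a call at either day against normal, and Mcm2 and Mcm5 had no call in the injured groups. Pcna stood at 4.26, 4.16, 4.11 and 3.96 in normal podocytes, 3.70, 3.75, 3.74 and 3.76 at day 4 and 3.47, 3.62 and 3.69 on the 3 day 7 arrays where its spot was not an outlier. It was lower at both days (-0.39 ± 0.10 and -0.53 ± 0.11), with no overlap with normal. Tyms, thymidylate synthase, was not called at either day. The brighter probe of Cdc6 was above background on only 1 of the 16 arrays, at day 4, and its other probe on 1 glomerular and 1 day 4 array.

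Birc5 had the largest rise among the mitotic members. Survivin, its product, belongs to the chromosomal passenger complex that corrects the attachment of chromosomes to the spindle, and it also inhibits cell death. It stood at -2.50, -2.29, -2.68 and -2.82 in normal podocytes, 2.97, 3.38, 4.13 and 4.86 at day 4 and 2.81, 2.79, 2.49 and 2.17 at day 7. The 3 groups did not overlap, and the day 4 arrays were the highest. The rise was 6.41 ± 0.34, adjusted p = 5.5e-09 (84.8-fold) at day 4 and 5.14 ± 0.34, adjusted p = 2.3e-08 (35.2-fold) at day 7, and day 7 was lower than day 4 by a difference of -1.27 ± 0.34, adjusted p = 0.011. These sizes rest on 1 probe, which was above background on all 4 normal podocyte arrays. The gene's other 2 probes were above background there on none, and on all arrays of both injured groups. Their measured differences were 6.60 and 6.21 at day 4 and 5.21 and 4.96 at day 7, not exact since their normal levels were not above background. Between the days they differed by -1.38 and -1.25. Glomerular RNA stood at 0.27, 0.72, 0.08 and -0.42, below every injured podocyte array, a comparison that was not tested. Of its partners in the complex, Cdca8, borealin, was not called at either day (-0.07 ± 0.34 and 0.43 ± 0.34), and Aurkb was above background on no array.

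The cyclins of G2 and mitosis rose with it. Ccna2 stood at -5.49, -4.58, -5.36 and -6.39 in normal podocytes, -1.46, -1.50, -0.85 and -0.55 at day 4 and -1.00, -0.91, -1.56 and -1.56 at day 7. All injured arrays lay above all normal arrays, and the days overlapped. The rise was 4.36 ± 0.38, adjusted p = 7.7e-07 at day 4 and 4.19 ± 0.38, adjusted p = 5.0e-07 at day 7, with no call between the days (-0.17 ± 0.38, adjusted p = 0.77). Ccnb2 stood at -4.02, -4.50, -4.91 and -5.69 in normal podocytes, -2.34, -2.24, -1.73 and -0.99 at day 4 and 0.26, -0.68, -0.64 and -0.91 at day 7. It climbed in steps that did not overlap (2.96 ± 0.39, adjusted p = 5.8e-05 at day 4, 4.29 ± 0.39, adjusted p = 6.2e-07 at day 7, and 1.33 ± 0.39, adjusted p = 0.018 between the days). The step between the days lost its call without any 1 of 3 arrays, such as day 7 replicate 1 (1.08, adjusted p = 0.059). Ccnb1, cyclin B1, stood at -5.75, -3.90, -5.85 and -6.58 in normal podocytes, -4.86, -3.89, -3.74 and -3.09 at day 4 and -1.65, -2.31, -3.86 and -3.07 at day 7. Normal replicate 2 overlapped day 4, and day 7 lay above all normal arrays. The day 7 rise was 2.80 ± 0.58, adjusted p = 0.00083, and the day 4 rise (1.62 ± 0.58, adjusted p = 0.045) passed narrowly and was lost without any 1 of 10 arrays and after normexp background correction (0.31, adjusted p = 0.18). Cyclins A2, B2 and B1 were above background on 1, 2 and 1 of the 4 normal podocyte arrays, so their normal levels lie at the edge of what was measured.

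Genes of the spindle and of cytokinesis made up most of the rest. Plk1, the polo kinase of mitotic entry, stood at -4.33, -3.70, -4.18 and -3.96 in normal podocytes, -1.98, -1.79, -1.59 and -1.03 at day 4 and 0.19, -0.03, -0.30 and -0.78 at day 7. Kif20a, a kinesin of cytokinesis, stood at -3.56, -3.15, -3.99 and -3.67, then -1.57, -1.08, -0.40 and -0.08, then 1.13, 0.71, 0.73 and 0.21 in the same 3 groups. Nusap1, which bundles spindle microtubules, stood at -4.33, -3.42, -3.38 and -3.52, then -0.93, -1.12, -0.68 and -0.16, then 1.09, 0.84, 0.98 and 0.23. In each of these genes the 3 groups were separate and ordered normal, day 4, day 7. Prc1, which crosslinks the central spindle, had the same order at -3.31, -2.29, -3.22 and -3.03 in normal podocytes, -2.06, -1.72, -1.17 and -0.68 at day 4 and 0.72, 0.39, -0.16 and -0.46 at day 7. For Plk1 the rise was 2.44 ± 0.29, adjusted p = 2.0e-05 at day 4 and 3.81 ± 0.29, adjusted p = 1.0e-07 at day 7. For Kif20a it was 2.81 ± 0.36, adjusted p = 3.5e-05 and 4.29 ± 0.36, adjusted p = 2.2e-07, for Nusap1 2.94 ± 0.27, adjusted p = 1.7e-06 and 4.45 ± 0.27, adjusted p = 1.3e-08, and for Prc1 1.56 ± 0.37, adjusted p = 0.0054 and 3.09 ± 0.37, adjusted p = 7.2e-06. Between the days the 4 genes rose by 1.37 to 1.53 (adjusted p from 0.00094 to 0.006). Kif20a and Nusap1 at day 7 stood above every glomerular array (-2.73, -2.45, -3.67 and -3.83 for Kif20a and -2.25, -1.65, -2.48 and -2.54 for Nusap1), which was not tested.

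Ube2c, whose enzyme feeds ubiquitin to the anaphase-promoting complex, stood at -4.37, -4.53, -4.09 and -5.35 in normal podocytes, -2.79, -2.56, -2.00 and -2.00 at day 4 and -1.43, -1.49, -2.48 and -2.74 at day 7. Injured arrays all lay above normal ones (2.25 ± 0.35, adjusted p = 0.00026 and 2.55 ± 0.35, adjusted p = 2.7e-05), and the days overlapped. Hmmr, a spindle protein first known as a hyaluronan receptor, stood at -3.79, -2.68, -3.41 and -2.88, -1.82, -1.86, -1.59 and -1.75 and -0.52, -1.59, -1.49 and -1.40 in the same order of groups, with rises of 1.44 ± 0.28, adjusted p = 0.0016 and 1.94 ± 0.28, adjusted p = 4.4e-05. Bub1b, the checkpoint kinase BubR1, stood at -3.45, -3.03, -4.12 and -4.15 in normal podocytes, -0.65, -1.91, -3.70 and -0.70 at day 4 and -0.57, -0.21, -1.44 and -0.44 at day 7. Day 4 replicate 3 stayed among the normal arrays while the other 3 did not. The rise was 1.95 ± 0.55, adjusted p = 0.014 at day 4, lost without day 4 replicate 4 (1.60, adjusted p = 0.052), and 3.02 ± 0.55, adjusted p = 0.00027 at day 7, where no array overlapped normal.

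**Figure D3:**
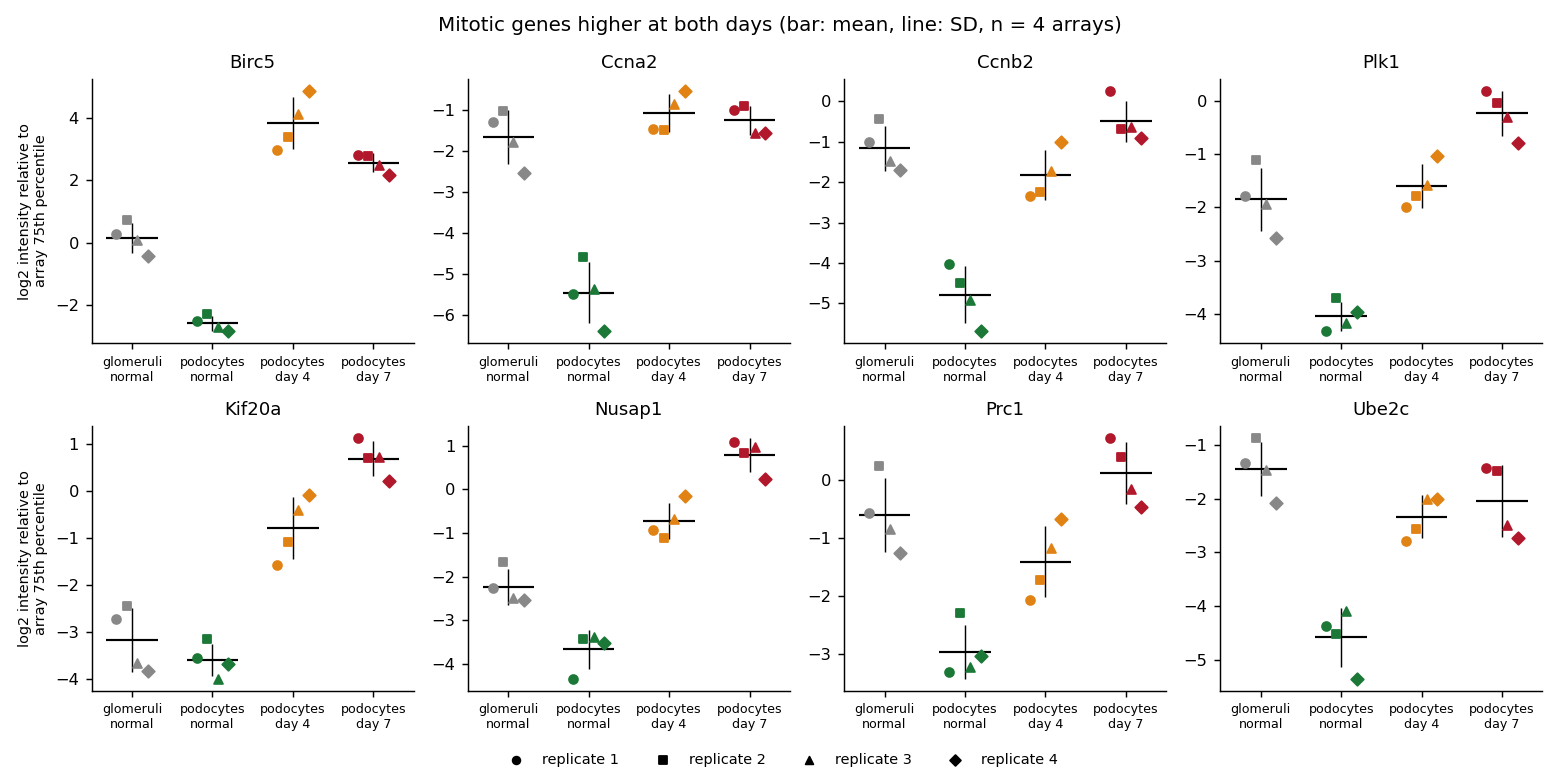
Log2 intensity relative to the array's 75th percentile (y axis) on each of the 4 arrays of each group (x axis) for 8 mitotic genes, with marker shape for the replicate number, a bar at the mean and a line for the SD. Every injured podocyte array lies above every normal podocyte array in all 8 panels, and Birc5 is the one whose day 7 arrays lie below its day 4 arrays.

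The size of these rises depended on the background correction, and their direction was the same in every setting tried. For the 11 mitotic members that rose at both days, the differences ran from 1.44 to 6.41 at day 4 and from 1.94 to 5.14 at day 7. With normexp correction, whose added offset shrinks differences of faint probes, they ran from 0.31 to 5.30 and from 0.75 to 4.10, and 10 of 11 and 11 of 11 were called. With normexp and quantile normalization they ran from 0.10 to 5.15 and from 0.53 to 4.04, and 9 and 11 were called, with Prc1 at day 4 (0.71, adjusted p = 0.057) lost besides Ccnb1.

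Mki67 kept a different time. It stood at -4.03, -3.21, -3.63 and -4.40 in normal podocytes, -4.55, -4.26, -4.18 and -4.92 at day 4 and -1.82, -1.06, -3.92 and -1.50 at day 7. Day 4 was not called (-0.66 ± 0.49, adjusted p = 0.33), and only 2 of its 4 arrays were above background, while Birc5, Ccna2 and Ccnb2 rose on every one of the same arrays. At day 7 replicates 1, 2 and 4 lay above every normal array and replicate 3 lay among them. The day 7 rise was 1.74 ± 0.49, adjusted p = 0.0072, and day 7 exceeded day 4 by 2.40 ± 0.49, adjusted p = 0.0021, with no overlap. Cdk1, by its kept probe, was above background on no normal or day 4 podocyte array and on 1 day 7 array. Its values were -5.69, -5.68, -6.81 and -6.80 in normal podocytes, -6.81, -6.86, -5.82 and -6.79 at day 4 and -4.62, -4.02, -6.69 and -5.00 at day 7, so no fold is given. Day 7 against normal was not called (1.16 ± 0.51, adjusted p = 0.062), except without replicate 3 (1.70, adjusted p = 0.0034). Day 7 against day 4 was called (1.49 ± 0.51, adjusted p = 0.035), and that call was lost without any 1 of 6 arrays and after normexp correction (0.23, adjusted p = 0.16). Top2a, the topoisomerase that untangles chromosomes, was above background on 2 of 4 glomerular arrays and on no podocyte array.

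Cenpa went the other way at day 4. It stood at -3.58, -2.90, -3.21 and -4.08 in normal podocytes, -5.27, -4.81, -5.67 and -4.96 at day 4 and -3.12, -4.21, -4.38 and -3.71 at day 7. No day 4 array was above background and none overlapped normal, so it was at least 2.37-fold lower than normal (adjusted p = 0.00067) and day 7 was at least 1.78-fold higher than day 4 (adjusted p = 0.0045). After normexp correction neither was called (-0.20, adjusted p = 0.28, and 0.28, adjusted p = 0.13). Day 7 against normal was not called (-0.41 ± 0.31, adjusted p = 0.27). Plk4 was lower at day 4 (-0.55 ± 0.15, adjusted p = 0.012, and -0.02 after normexp correction) and not at day 7. Mad2l1 and Pttg1, securin, were lower at day 7 (-0.73 ± 0.14, adjusted p = 0.0004 and -0.51 ± 0.15, adjusted p = 0.01), the latter lost when its 2 probes were averaged (-0.27, adjusted p = 0.24).

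Other mitotic members had no call at either day. Aurka, the kinase of spindle poles, differed by -0.20 ± 0.30 and -0.26 ± 0.30, Tpx2, its activator, by -0.81 ± 0.48 and 0.20 ± 0.48, and Cdc20, the activator of the anaphase-promoting complex, by -0.06 ± 0.23 and 0.16 ± 0.23. At day 4 the 2 kept probes of Tpx2 had opposite signs (-0.81 and 0.23). Racgap1 and Ect2, which set the division furrow, differed by -0.08 and -0.11 at day 4 and by -0.10 and -0.18 at day 7, and Cenpe, a kinesin of the kinetochore, by -0.22 and -0.27. Partners of one process thus did not share a call, as for Kif20a and Prc1 beside Racgap1 and Ect2. Their differences from each other were not tested. Of the untested mitotic members, Bub1 was above background on 2 glomerular arrays alone, Kif11 on 2 glomerular and 1 normal podocyte array, Cenpf on 1 glomerular and 2 day 4 arrays, and Kif2c on 1 day 7 array.

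Between day 4 and day 7 a minority of the S phase and mitotic genes rose, Mki67 and Tk1 among them. At day 7, 15 of 42 members were higher than at day 4 and 3 were lower, beside 13.2% and 20.7% of all genes (34.0% called in all), with a median of 0.44 against -0.07. The arrays of the 2 days did not overlap for 19 members, beside 34.2% of all genes. Higher were 9 of 24 mitotic, 4 of 12 S phase and 2 of 6 G1 members. Lower were Birc5, Mad2l1 (-0.40 ± 0.14, adjusted p = 0.037, lost without any 1 of 5 arrays) and E2f1. Both groups lay on 1 slide. Without 1 array (day 4 replicate 2 or 3, or day 7 replicate 1 or 4) the count of lower members fell from 3 to 1. Plk4 passed at the edge (0.41 ± 0.15, adjusted p = 0.05), and its call was lost without any 1 of 13 arrays.

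The day 7 arrays were not alike in these genes. Replicate 3 was the lowest of the 4 for 12 of 24 mitotic members and the highest for none, and replicate 4 was the lowest for 11, against 18.3% and 33.4% of all genes tested. Replicate 3 was the lowest in Mki67, Cdk1, Tk1, Rrm2, Bub1b and Ccnb1, and was not in Nusap1, Kif20a, Birc5 or Plk1. In the same array the parietal epithelial marker list, averaged and set against normal podocytes, was at 1.00, while replicates 1, 2 and 4 were at 2.25, 2.11 and 2.01. Replicate 3 was also lowest in the mesangial and smooth muscle list (0.93, others 1.11 to 1.54). So it was in the distal nephron and collecting duct list (-0.85, others -0.23 to 0.12) and, narrowly, the endothelial list (-0.24, others -0.22 to 0.24). The leukocyte list was lowest on replicate 4, and the proximal tubule and red blood cell lists on replicate 1. The part of these markers in the result was not tested.

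**Figure D4:**
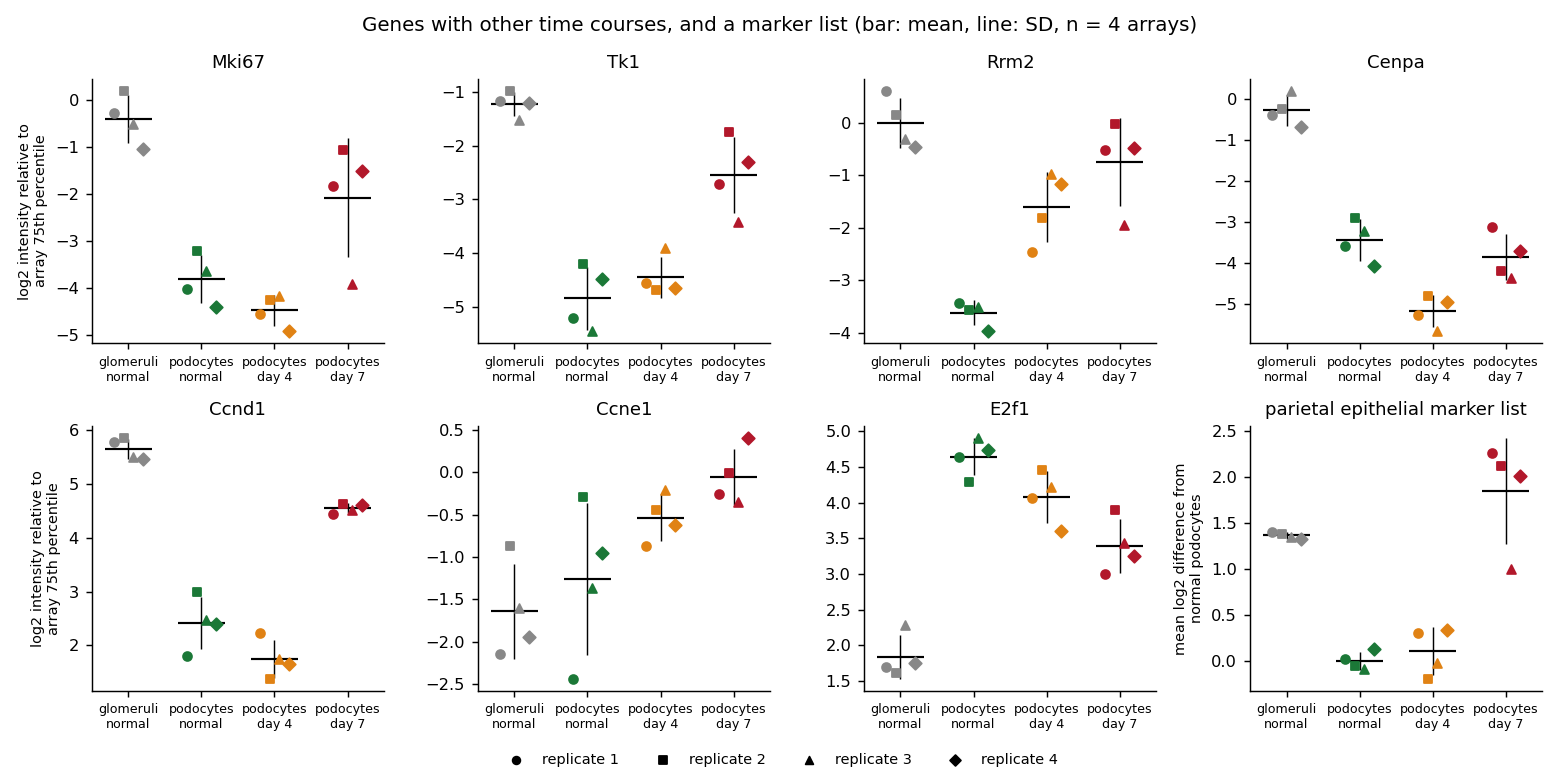
Log2 intensity relative to the array's 75th percentile (y axis) by group (x axis) for 7 genes, and in the last panel the mean log2 difference of 5 parietal epithelial markers from normal podocytes, with marker shape for the replicate number, a bar at the mean and a line for the SD. Mki67, Tk1, Ccne1 and Ccnd1 were called higher at day 7 and not at day 4, where Ccnd1 was called lower. Day 7 replicate 3 (triangle) is the lowest of its group in Mki67, Tk1, Rrm2, Cenpa, Ccne1 and the parietal list.

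Markers of other cells moved with some of these days. Over all genes tested, 12.3% were called higher and 19.9% lower at day 4, and 21.6% and 36.7% at day 7. The parietal epithelial list (Cldn1, Pax8, Krt8, Krt18 and Cd44 tested, Krt19 and Pax2 not) had 5 of 5 tested members higher at day 7, with array means from 1.00 to 2.25 against -0.09 to 0.13 in normal podocytes, and 0 of 5 called at day 4 (-0.19 to 0.34). Not all 5 were poor in uninjured podocytes: against glomerular RNA 1 was higher there (1.22), 3 were lower and 1 was not called. The mesangial and smooth muscle list had 4 of 10 higher at day 7 (array means 0.93 to 1.54) and 1 higher and 1 lower at day 4 (-0.42 to 0.06). Its day 7 means were uneven over the genes, with a median difference of 0.49 and a largest of 6.01. The endothelial list had 3 higher and 2 lower of 12 at day 7 and 3 lower at day 4, the leukocyte list had 2 higher and 1 lower of 12 at day 7 and 3 higher at day 4 (array means -0.24 to 0.84), and no proximal tubule marker was called. The red blood cell list had 4 of 5 lower at day 7 (array means -2.28 to -1.25, against -0.28 to 0.65 in normal podocytes) and the distal nephron and collecting duct list 2 of 8 lower, with no call in either at day 4. At day 4 the leukocyte list was highest on replicate 1 (0.84) and lowest on replicate 4 (-0.24). The mean of the mitotic members was lowest on replicate 1 (0.85) and highest on replicate 4 (1.31). The parietal list was highest on replicate 4 (0.34) and lowest on replicate 2 (-0.19). The endothelial, mesangial, proximal tubule and red blood cell lists were highest on replicate 1 (0.03, 0.06, 1.42 and 1.33), and the distal nephron list on replicate 3 (0.11). The podocyte list itself had 8 of 10 lower at day 7 (array means -1.10 to -0.82) and 4 lower and 1 higher at day 4 (-0.41 to -0.09). The part of any of these lists in the members' values was not tested.

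Other genes of the pathway, grouped by the same roles, rose and fell as follows, beside all genes tested. Of all genes, 12.3% rose and 19.9% fell at day 4 (median -0.12), and 21.6% rose and 36.7% fell at day 7 (median -0.14). Among 46 tested of 67 other mitotic genes, 7 rose and 6 fell at day 4 (median 0.10) and 18 rose and 10 fell at day 7 (median 0.34). Among 32 tested of 35 other replication genes, 2 rose and 11 fell at day 4 (median -0.21). At day 7, 7 rose and 12 fell (median -0.19), with 4.93 the largest difference. The 2 at day 4 were Mcm10, which starts the replication fork (5.30 ± 0.31, adjusted p = 1.4e-08), and Uhrf1, which carries DNA methylation through replication (1.77 ± 0.21, adjusted p = 1.9e-05, named after its value was seen, to complete the count). Among 17 tested of 18 other G1 genes, 1 rose and 4 fell at day 4 (median -0.10) and 2 rose and 8 fell at day 7 (median -0.30), with Myc, a growth factor-responsive transcription factor, the one that rose at day 4 (3.24 ± 0.38, adjusted p = 1.9e-05, and 4.41 ± 0.38, adjusted p = 3.7e-07 at day 7). The other one at day 7 was Cdk6, a partner of the D cyclins (1.79 ± 0.18, adjusted p = 1.3e-06), also named after its value was seen. All 7 inhibitors of cyclin-dependent kinases were tested, and 1 rose and 2 fell at day 4 and 3 rose and 2 fell at day 7. Cdkn1a, p21, rose on the same arrays as the mitotic cyclins (4.38 ± 0.50, adjusted p = 1.4e-05, and 4.96 ± 0.50, adjusted p = 1.5e-06 at day 7), and the other 2 that rose at day 7 were Cdkn2a (3.04 ± 0.41, adjusted p = 2.0e-05) and Cdkn2b (1.52 ± 0.32, adjusted p = 0.001). Between the days the largest rises outside the members were Melk, a kinase of dividing cells (2.95 ± 0.47, adjusted p = 0.00034), Cdkn2a, the p16 and p19Arf gene (2.19 ± 0.41, adjusted p = 0.0011), and Espl1, separase (2.08 ± 0.44, adjusted p = 0.0026). In uninjured podocytes against glomeruli, 51.6% of all genes tested were higher and 27.5% lower. Higher and lower were 19 and 19 of the 46 other mitotic genes, 15 and 10 of the 32 replication genes, and 7 and 3 of the 17 G1 genes. The largest of these differences were Pole, the leading-strand polymerase (-3.72 ± 0.23, adjusted p = 3.7e-09), Cdkn1a (-3.68 ± 0.50, adjusted p = 9.5e-06) and Cdkn2c (-3.43 ± 0.38, adjusted p = 1.2e-06).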

How the data were processed

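RNA of 16 samples was hybridised to 16 one-colour Agilent arrays. Per the file headers, the deposited files hold each spot's processed intensity on a linear scale, background-subtracted by Agilent Feature Extraction 11.5.1.1 (named in the submitters' processing notes), with flags, and were not normalized between arrays. Per the file headers, those flags (coded as other values) mark spots above background and outlying spots. The authors' deposited value table holds log2 values, each column an exact shift of 1 array. Its replicates 1 to 3 of both normal groups match another replicate of the same group, and its normalization is not stated, so it served as an alternative. It keeps the pairing of the replicate numbers.

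Control and outlying spots were left out, spots of a probe averaged, and the test ran on log2 intensity less its 75th percentile on that array. The probes' accessions, versions dropped, were looked up in RefSeq's gene table (GRCm38.p6), naming 26582 of 55681 probes. A probe was kept if 1 group or more had it above background on each of its 4 arrays (19118), and the kept probe with the highest mean stood for a gene. One model of group over all 16 arrays was fitted with limma 3.58.1 (lmFit, eBayes, R 4.3.3, 12 residual degrees of freedom), after reading with Python 3.11.15. Tested on simulated data for day 4 against normal (14564 genes), it recovered 83% of changes of 1 log2 unit and 86% of 2. Where a group was not above background, a bound replaces the fold. The number of arrays limits the precision.

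Replicates of the same number correlated in their deviations for podocyte against glomerular RNA (r = 0.42 to 0.51), so the block is given there. Every member is accounted for, with full values for those called after injury with a difference of at least 1 and those known as bounds. Of the other pathway genes, the 3 largest called differences per comparison are named, except at day 7, where the largest difference of the replication genes is given by value only. The members and all lists were chosen with earlier results of these data known. Alternatives were quantile and median scaling, normexp (offset 50), other probe filters, averaging probes, the authors' table, 2-group fits, blocks, and leaving out each array.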

Additional observations from a re-analysis of the deposited data

Results flagged for a closer look

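In 7 of 167 sets of 4 arrays examined for an array far from its group, 1 array stood apart by more than the limit of Dixon's test for 4 samples, and chance flags about 1 in 20. They were Cdk1 on day 4 replicate 3 (-5.82, others -6.86 to -6.79, none above background), Cenpe on normal podocyte replicate 2 (-1.16, others -1.82 to -1.71), Nusap1 on normal podocyte replicate 1 (-4.33, others -3.52 to -3.38), Mcm2 on day 7 replicate 1 (-1.30, others -0.86 to -0.79), Mcm4 on day 7 replicate 1 (2.04, others 1.84 to 1.85), Mcm5 on day 4 replicate 4 (-0.027, others 0.06 to 0.07) and Tk1 on day 4 replicate 3 (-3.90, others -4.70 to -4.56).

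The injury difference was not the same at the 2 days for 18 members, by limma's test of day 7 against day 4. Higher at day 7 were Ccnd1 (2.79), Mki67 (2.40), Tk1 (1.91), Prc1 (1.53), Nusap1 (1.51), Cdk1 (1.49), Kif20a (1.48), Plk1 (1.37), Ccnb2 (1.33), Cenpa (1.33), Mcm3 (0.84), Ccnd2 (0.84), Cdt1 (0.72), Mcm7 (0.50) and Plk4 (0.41). The values of Cdk1 and Cenpa are not exact, since neither was above background on any day 4 array (for Cenpa the bound is at least 1.78-fold, and Cdk1 has none). Lower at day 7 were Birc5 (-1.27), E2f1 (-0.69) and Mad2l1 (-0.40).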

How the results depend on the processing

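Under every alternative that tested them, 23 of 30 members called for podocyte against glomerular RNA kept their direction and call. So did 9 of 19 at day 4, 22 of 26 at day 7 and 7 of 18 between the days. Requiring a probe above background on all 16 arrays left only 21, 13, 19 and 12 of these called members to test, in the same order. That filter gave 12 lower in podocytes, 8 higher at day 4, 12 higher at day 7 and 9 higher between the days. Setting the median of all probes gave 11 lower at day 4 and 12 at day 7, while setting the median of the genes tested, added after seeing the data, gave 4 and 6. With normexp and quantile normalization 1 member was lower between the days. With the replicate number as a block, 8 members were higher between the days, where the numbers do not pair the samples, with 10 higher at day 4 and 20 at day 7; of the paired comparison 11 were higher and 22 lower. The slide as a block could not be fitted for either day against normal.

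Leaving out 1 array gave 11 to 15 higher and 4 to 7 lower at day 4, 19 to 20 and 6 to 7 at day 7, 9 to 10 and 18 to 22 for podocyte against glomerular RNA, and 11 to 15 and 1 to 4 between the days. Directions turned for E2f7 with probes averaged (1.12 at day 7, -1.91 in podocyte against glomerular RNA), for Cdk1 without the filter, which takes another probe (-0.28 between the days, 1.32 in podocytes), and for Ccnd3 in podocytes with median scaling (0.31). Faint signals limit Cdk1, Tk1, Mki67 and the cyclins in normal and day 4 podocytes.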
